A study of Mus musculus with 24 samples.

Results

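Cytosolic ribosomal protein genes encode the proteins of the large and small ribosomal subunits, and 83 of the 34844 gene names on the array belong to this set. They were chosen by name, the symbols beginning Rpl or Rps with a number plus Rplp0, Rplp1, Rplp2 and Rpsa, without kinases and pseudogenes. The rule uses names alone. By name, 51 of the 83 genes belong to the large and 32 to the small subunit, and together they are read by 186 of 55681 probes. The array annotates Rps4y2 with a non-coding RNA record, so that member is counted by name only. Canonical members number 76, and the other 7 are close copies of another member: Rpl3l, Rpl7l1, Rpl10l, Rpl22l1, Rpl39l, Rps27l and Rps4y2. All 83 names matched a RefSeq gene.

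The ribosome translates messenger RNA; its small subunit reads the message and its large subunit joins the amino acids. Ribosomal protein messages carry a terminal oligopyrimidine tract, a run of C and T at the very start of the transcript, through which the kinase mTOR controls their translation together. In the thymus, T cell progenitors divide rapidly after the beta chain of their receptor has been made (beta-selection), then become small resting CD4 and CD8 double-positive cells, and selected cells go on as CD4 or CD8 single-positive cells. Rpl22 is known to be needed for the development of alpha-beta T cells, and Rpl22l1 is its copy.

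The study measured blood cell progenitors from thymic and fetal niches on 24 Agilent single-colour arrays, 1 sorted mouse cell sample each. From thymus heterozygous for a Foxn1 mutation (Foxn1 +/-, called wt) came 3 arrays each of DN3 cells (the double-negative stage of beta-selection), DP cells (double-positive), SP4 cells (CD4 only) and SP8 cells (CD8 only). From transgenic thymus without functional Foxn1 (Foxn1 -/-, called tg) came 4 arrays of DP cells and 2 of B cells without surface IgM. Wild-type fetal liver gave 3 arrays of IgM-negative and 3 of IgM-positive B cells, written FL B. Foxn1 is the transcription factor that makes thymic epithelium, the tissue that guides T cell development. The labels name neither the transgenes nor the age or strain of the mice. Arrays are called by their group and title number. Some numbers are shared by wt DP 3 and 3A and by tg DP 6, 6A and 6B, and these may be repeats of a sample. The cell type field given for SP4 mentions SP8 too, and the title decided that group. Nothing in the labels ties replicates to separate animals. The p-values therefore reflect only how far these samples scatter, and that scatter may be technical.

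On tg B 23, 80.5% of probes were well above background, and the median signal was 125 intensity units. On the other arrays these were 87.39% to 96.55% and 208 to 314. The first principal component over all genes held 18.1% of the variance and placed tg B 23 at 238.4, FL B IgM-pos 21 at 115.9 and tg DP 4 at 46.5, with each remaining array between -60.1 and 23.2. These 3 arrays are those called apart below, and results that rest on them are also given without them where that can be done. Lineage markers separated the sorted groups only in part. Tcf7, a transcription factor of T cells, was higher in wt thymocytes than in fetal liver B cells by 4.29 ± 0.64 (SE; limma, adjusted p = 0.0184). It was the 1 of 8 T markers that passed. Of these 8, 5 were higher in thymocytes and 3 lower. At an unadjusted p under 0.05 (limma) there were 3 higher and 1 lower. All 7 B markers were lower in thymocytes, 4 of them at an unadjusted p under 0.05, and none passed. Between SP4 and SP8 cells Cd4 differed by 0.18 and Cd8a by 0.01, and neither passed. No defining marker was below background on all arrays of a group. The arrays lay on 4 slides, and wt DP shared no slide with SP4 or SP8.

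Values below are log2 signals minus the array's 75th percentile, so a negative value is a gene dimmer than that level. They are levels of 1 probe per gene, the brightest of the gene's probes, and cannot be set against another gene's probe. Differences are on the same log2 scale with the SE of the fit, and a gene passed at a Benjamini-Hochberg adjusted p under 0.05 over all genes.

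The probes behind 5 members show what was hybridised. Rpl23, Rps9 and Rpl12 are among the 5 members with the smallest p over the 8 groups, and the Rps27 and Rps29 probes are given because the array annotation places them on another chromosome than the gene. Each is 60 bases, written in lower case, with positions on build mm9.

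Rpl23, chr11:97639579-97639638, minus strand: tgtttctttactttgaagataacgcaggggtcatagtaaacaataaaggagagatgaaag
Rps9, chr7:3658287-3658346, plus strand: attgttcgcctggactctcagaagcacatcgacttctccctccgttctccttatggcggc
Rpl12, chr2:32818526-32818585, plus strand: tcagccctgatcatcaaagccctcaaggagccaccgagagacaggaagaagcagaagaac
Rps27, chr9:114891672-114891731, minus strand: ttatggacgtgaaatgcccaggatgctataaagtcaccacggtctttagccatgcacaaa
Rps29, chr2:172335075-172335134, minus strand: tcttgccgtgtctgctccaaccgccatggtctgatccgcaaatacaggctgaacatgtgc

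Ribosomal protein genes have many processed copies in the mouse genome, and such a probe may read a copy as well as its gene. The brightest probe lay on another chromosome than the gene for 5 members (Rpl28, Rpl36, Rps4x, Rps27 and Rps29), and the accessions of 8 members' probes name more than 1 RefSeq gene. The latter are Rpl22l1, Rpl26, Rpl30, Rpl34, Rplp2, Rps15a, Rps26 and Rps27. Values of all these members are uncertain as to the gene read wherever they are given below, mostly without this being repeated. Gene models for mm9 were not used here, so exon positions of the probes are not given.

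The members were bright. On every array 80 of 83 were well above background, and the others were Rpl3l (not on 6 arrays), Rps21 (not on 2) and Rpl39l (not on 1). Rps3, a small-subunit protein at the entry of the messenger RNA, lay between 4.90 and 5.56 on all 24 arrays, and its residual SD within groups was 0.114. Those of Rpl29 and Rpl28 were 0.115 and 0.165. Among the members of widest scatter were Rps21 (1.451), Rpl3l (1.327), Rpl39l (1.013) and Rps15a (0.969). The median residual SD was 0.440 over the members and 0.498 over all genes, and that of the large subunit was 0.436 against 0.452 for the small one.

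Both subunits stood higher in wt DN3 and SP4 cells than in DP cells. Each gene was set against its own mean over the 24 arrays, and the median over the members of a subunit was taken on each array. The large-subunit median was 0.184, 0.517 and 0.280 on the DN3 arrays 7, 8 and 9, and -0.166, -0.046 and -0.077 on the DP arrays 3A, 2 and 3. On the SP4 arrays 10, 11 and 12 it was 0.471, 0.144 and 0.361, and on the SP8 arrays 13, 14 and 15 it was 0.044, 0.073 and -0.022. The DN3 and SP4 arrays did not overlap with the DP arrays, and the SP8 arrays lay between them.

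The small subunit gave a like picture. Its group mean was 0.294 ± 0.083 (SD, n = 3) in DN3, -0.113 ± 0.122 in DP, 0.390 ± 0.159 in SP4 and 0.076 ± 0.073 in SP8. The tg DP arrays, at -0.122 ± 0.136 (n = 4), lay with the wt DP arrays. Fetal liver B cells lay at -0.018 ± 0.128 when IgM-negative and at -0.119 ± 0.160 when IgM-positive, and tg B cells at -0.193 ± 0.074 (n = 2). The large subunit means of these 4 groups were -0.088 ± 0.092, -0.112 ± 0.107, -0.078 ± 0.063 and -0.279 ± 0.062. Among neighbours in the order, DN3 and SP4 differed by less than their spread, as did wt DP, tg DP and the fetal liver B groups.

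**Figure D1:**
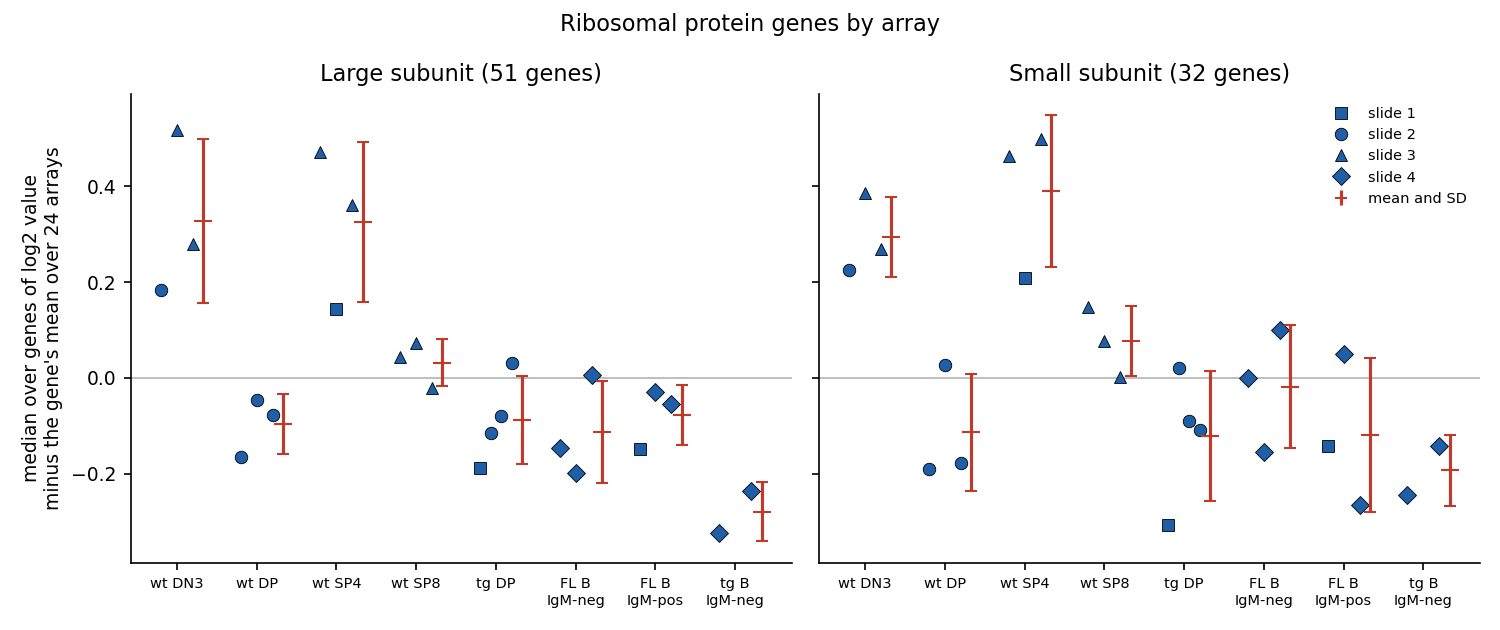
The median over large-subunit members (one panel) and small-subunit members (the other) on each of 24 arrays, in log2 units after each gene's mean over all arrays was taken away; marker shape is the slide, and the red line and bar are the group mean and SD. The wt DN3 and SP4 arrays lie above the wt DP arrays in both panels.

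The share of members above their own mean was between 77.1% and 86.7% on the DN3 arrays and between 71.1% and 80.7% on the SP4 arrays. It was between 26.5% and 43.4% on the wt DP arrays, and between 26.5% and 48.2% on the tg DP arrays. SP8 arrays ranged from 47% to 69.9%. Each array is a pool of sorted cells, so fewer cells with a transcript and less RNA per cell cannot be told apart.

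**Figure D2:**
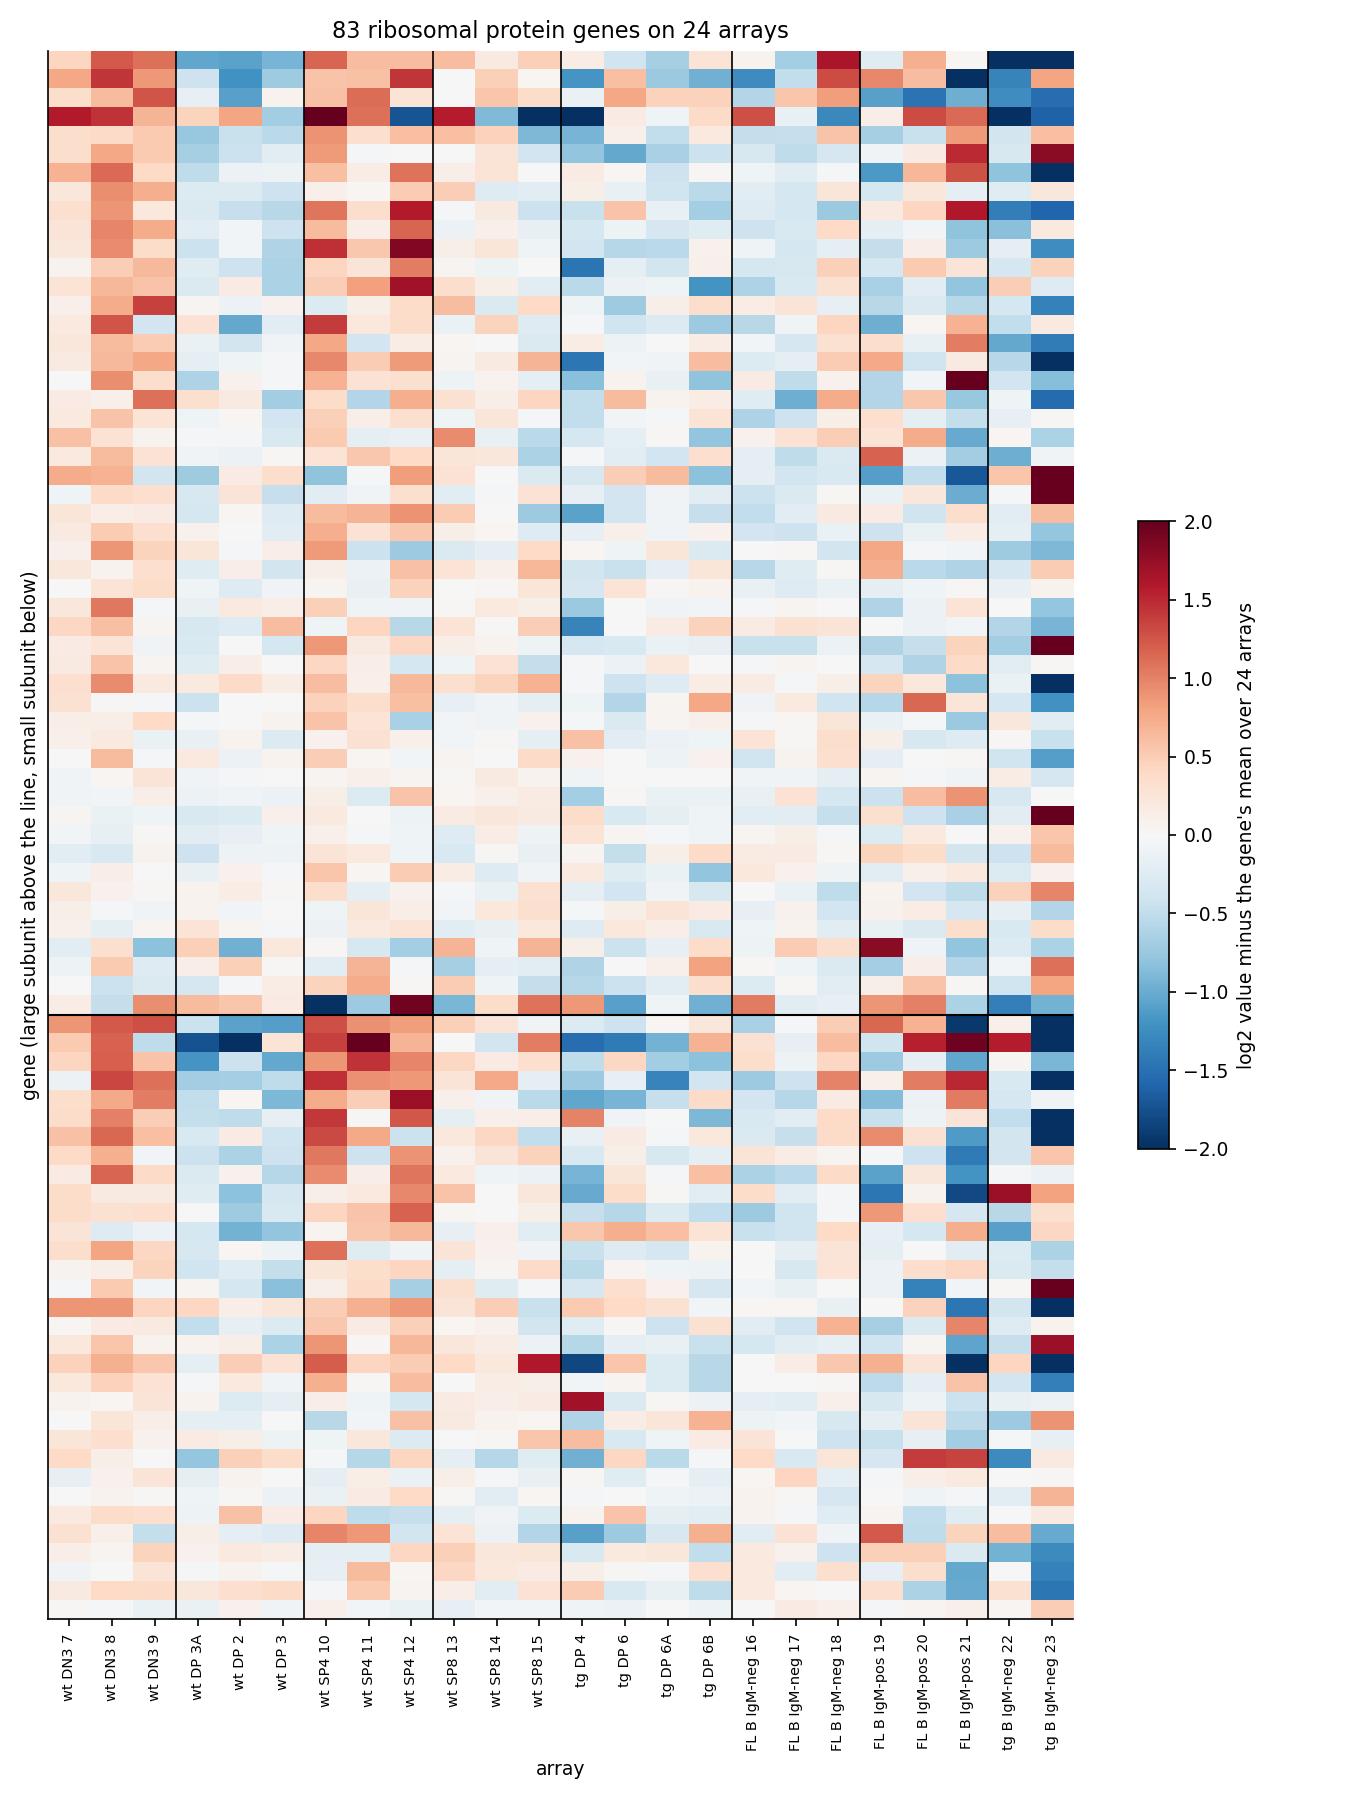
Values of the 83 members (unlabelled rows, by subunit, ordered by the difference between wt DP and DN3) on the 24 arrays (columns, by group), as log2 units from each gene's own mean, with colours limited at 2 either way. The DN3 and SP4 columns are mostly above the mean, and the DP columns of both genotypes mostly below.

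Over the 8 groups, 1 of 83 members passed limma's F test (Rpl23, adjusted p = 0.0446), against 0.188% of all genes. Those next in order were Rps9 and Rpl4 (both adjusted p = 0.0538), Rplp0 (0.0673) and Rpl12 (0.0746). The member that passed changed with the setting. It was Rpl12 when all probes of a gene were averaged and Rps9 with probe GC correction. At an unadjusted p under 0.05, 29 of 83 members and 13.6% of all genes differed between groups.

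Between the DN3 and DP stages, 76 of 83 members had the lower mean in DP cells. The median difference was -0.38, a ratio of 0.768, against 0.03 over all genes. It was -0.37 over the large subunit, where 45 of 51 members were lower, and -0.46 over the small subunit, where 31 of 32 were. Canonical members were lower in 72 of 76 cases. No member passed the adjusted test (limma), and 0% of all genes did. At an unadjusted p under 0.05, 20 of 83 members differed, all lower in DP, against 2.06% of all genes in either direction. For 40 members every DP array lay below every DN3 array, which held for 5.55% of all genes.

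Rpl23, a large-subunit protein at the interface with the small subunit, was among the members furthest apart. It was 0.87, 1.67 and 1.55 on DN3 arrays 7, 8 and 9 and -0.59, -0.62 and -0.49 on DP arrays 3A, 2 and 3, a difference of -1.93 ± 0.42 (adjusted p = 1). The groups did not overlap. Rps9, an early-binding protein of the small subunit, was 1.21, 1.97 and 1.36 in DN3 and -0.40, 0.36 and -0.24 in DP. Its difference was -1.60 ± 0.34, and here too the groups were apart. Rpl4 and Rpl12 differed by -1.14 ± 0.37 and -0.88 ± 0.33. Rpl14, a large-subunit protein, was 1.12, 1.83 and 1.63 in DN3 and 0.62, 0.63 and 0.48 in DP, lower by 0.95 ± 0.26 in DP without overlap. Another Rpl14 probe, on the gene's own chromosome, gave -0.04, and one placed on chromosome 7 gave -1.55.

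Rps15a, of the small subunit, was 2.07, 2.41 and 2.48 in DN3 and 0.75, 0.12 and 0.09 in DP. The difference was -2.0 ± 0.75, on a probe whose accessions name more than 1 gene and whose scatter over all groups was wide. Rpl7 was 1.79, 1.82 and 1.95 in DN3 and 0.67, 0.98 and 0.89 in DP, and differed by -1.01 ± 0.44. The 7 members not lower in DP were Rpl10l, Rpl22l1, Rpl24, Rpl39l, Rpl6, Rplp1 and Rps3. Their differences were small: Rpl24 0.18 ± 0.31, Rpl6 0.10 ± 0.22 and Rpl22l1 0.16 ± 0.36, for example, and those of Rpl24 and Rpl6 were below 0 when all probes of a gene were averaged (-0.24 and -0.20) or the slide entered the fit (-0.20 and -0.06). With the slide in the fit Rpl22l1 also turned, to -0.14.

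The stage difference was present within a slide. On slide 2, which held all wt DP arrays and DN3 array 7, 70 of 83 members were lower in DP and the median was -0.34, against -0.01 for all genes. The 3 tg DP arrays on that slide were lower than DN3 array 7 for 67 members, with a median of -0.28 against -0.04 for all genes. With the slide as a fixed block in the fit, the large and small medians were -0.31 and -0.46. T cell markers were also lower in DP than DN3 (6 of 8, median -0.29, mean level per array -0.38 to -0.08 in DP and 0.02 to 0.48 in DN3), and none passed. Their part in the result was not tested.

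From DP to SP4, 72 of 83 members were higher in SP4, with a median of 0.40, a ratio of 1.32, against -0.07 over all genes. The large-subunit median was 0.35 (46 of 51 higher) and the small-subunit median 0.55 (26 of 32 higher). No member passed (0% of all genes; limma), and 23 of 83 members had an unadjusted p under 0.05, all higher in SP4, against 6.44% of all genes. In 37 members every SP4 array lay above every DP array, against 5.66% of all genes. This comparison uses the same DP arrays as the one with DN3, so a value that is low on those arrays enters both.

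Rps9 was 1.67, 2.23 and 1.76 on SP4 arrays 10, 11 and 12, all above the DP arrays, a difference of 1.98 ± 0.34 (limma, adjusted p = 0.0730). Rps9 passed under median scaling (adjusted p = 0.0405), normexp background correction (0.0320), a stricter filter (0.0428), array weights (0.0493), probe GC correction (0.0422) and without the 3 arrays that stand apart (0.0436). It did not pass under quantile scaling (0.0647), in the authors' matrix (0.0655), with the mean of all probes (0.0686) or with no filter (0.0782). Nor did it with the slide as a fixed (adjusted p = 0.902) or random block (0.125), with only the groups compared (0.206) or with arrays of a shared title number averaged (0.395). Without the 3 arrays Rps15a passed as well (1.88, adjusted p = 0.0405), and under array weights Rpl12 did (1.60, 0.0493). Rpl12, of the stalk base of the large subunit, was 3.79, 2.87 and 4.19 in SP4 and 1.90, 2.28 and 1.74 in DP, higher by 1.64 ± 0.33 (adjusted p = 0.205). Rpl23 was 1.61, 1.07 and 1.07 in SP4, higher than in DP by 1.82 ± 0.42 (adjusted p = 0.287). All 3 genes had groups that did not overlap.

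Rplp0, the protein on which the stalk of the large subunit is built, was 0.06, -0.66 and 0.58 in SP4 and -1.29, -1.46 and -1.56 in DP, higher by 1.43 ± 0.37. Rpl27a was higher by 1.25 ± 0.35 and Rps12 by 1.11 ± 0.35. At the other end, Rps27l differed by -0.40 ± 0.25 and Rpl13a by -0.22 ± 0.33. Rpl13a was above 0 when all probes of the gene were averaged, at 0.35, and at 0.09 without SP4 array 12.

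No slide held both wt DP and SP4 arrays. With the slide as a fixed block, which rests on the other groups to join slides, the large and small medians were 0.37 and 0.55. On slide 1, SP4 array 11 was higher than tg DP array 4 for 65 of 83 members, with a median of 0.40 against 0.13 over all genes. That pair rests on tg DP 4, which stands apart, and slide 1 holds no other DP array. T markers had 7 of 8 higher in SP4 than DP (median 0.20, none passed, mean level per array -0.31 to 0.63 in SP4), and their part was not tested.

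**Figure D3:**
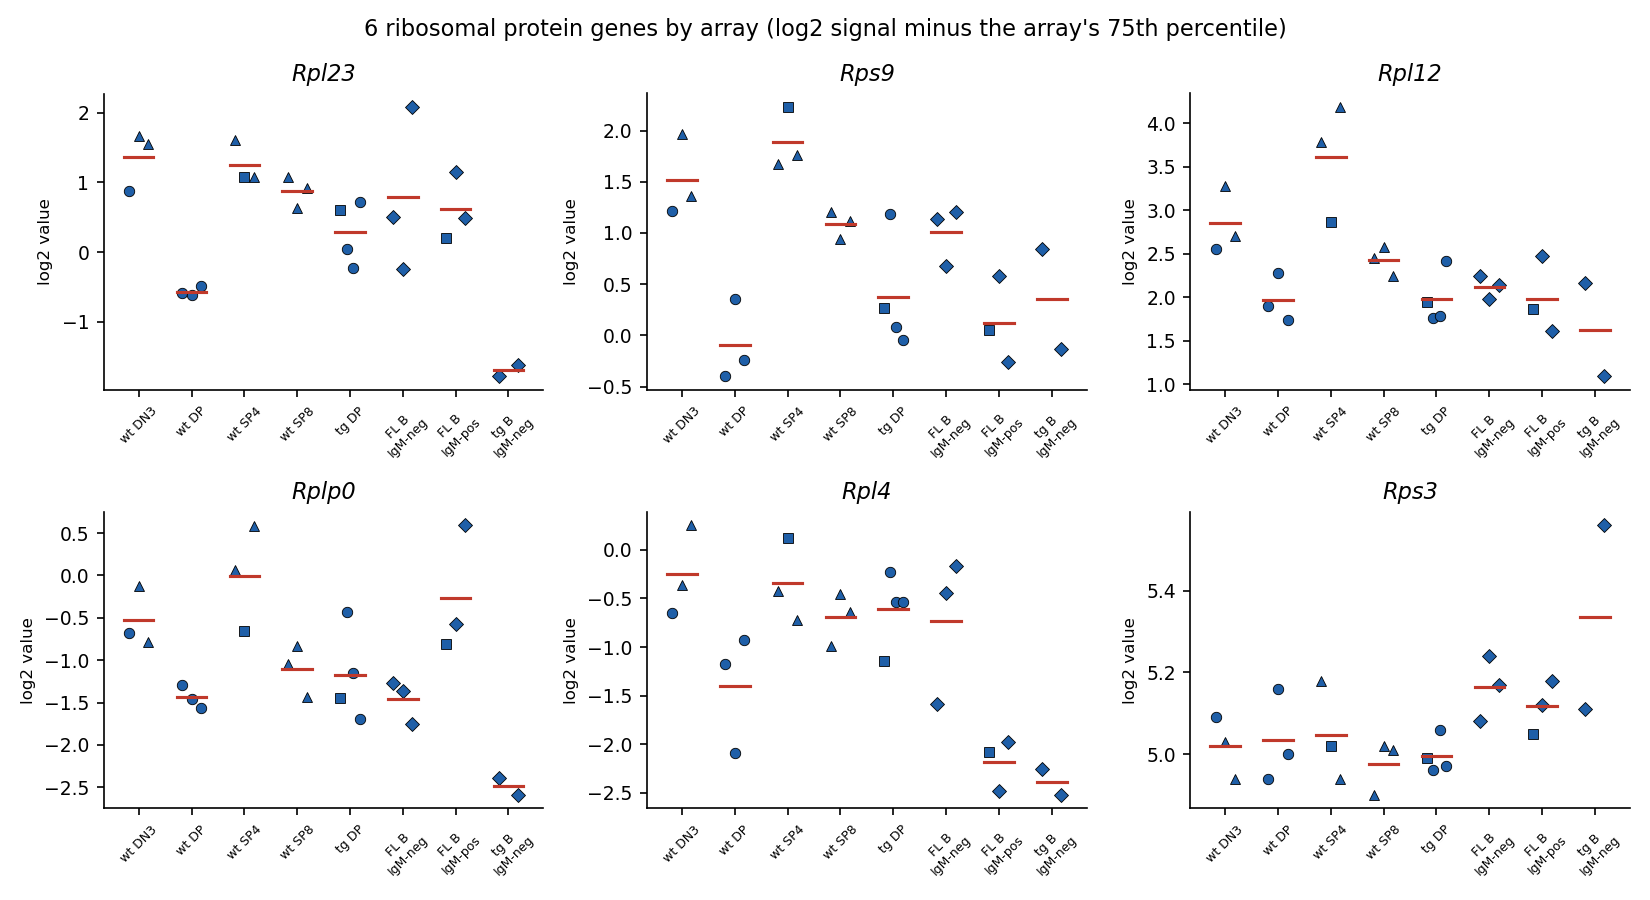
Log2 level, relative to the 75th percentile of the array, for Rpl23, Rps9, Rpl12, Rplp0, Rpl4 and Rps3 on each of 24 arrays by group, with the group mean as a red line; each panel has its own probe and levels are not comparable between panels. Rpl23 is lowest on the tg B arrays, at -1.78 and -1.61, and Rps3 stays between 4.90 and 5.56.

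SP8 cells lay nearer to DP cells. Of 83 members 65 were higher in SP8 than DP, with a median of 0.22 against -0.02 over all genes, and 22 did not overlap in that direction against 4.92% of all genes. No member passed (0% of all genes; limma), and 3 members had an unadjusted p under 0.05 against 2.15% of all genes. Rps9 was 1.2, 0.94 and 1.12 in SP8, higher than in DP by 1.18 ± 0.34. Rpl23 was 1.07, 0.63 and 0.92, higher by 1.44 ± 0.42, and Rps29 by 0.45 ± 0.20, while Rpl22l1 (-0.56 ± 0.36), Rps27l (-0.40 ± 0.25) and Rps15 (-0.35 ± 0.48) were lower. With the slide as a fixed block the large and small medians dropped to 0.02 and 0.07, at 0.07 for all genes, and 46 of 83 members were higher.

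SP4 against SP8 compares the groups titled as CD4 and CD8 single-positive cells. As given above, neither Cd4 nor Cd8a passed between them, so their identity rests on the titles. Members were higher in SP4 in 61 of 83 cases, with a median of 0.26 against -0.03 over all genes, and 20 did not overlap, against 4% of all genes. No member passed (0% of all genes; limma) and 9 had an unadjusted p under 0.05, against 5.13% of all genes. Rpl12 was 2.45, 2.58 and 2.25 in SP8, lower than in SP4 by 1.19 ± 0.33 (adjusted p = 0.706). Rplp0 was higher in SP4 by 1.10 ± 0.37 and Rpl21 by 0.55 ± 0.19, though Rpl21 was at -0.17 when its probes were averaged. Rpl10l (-0.75 ± 0.51) stood at the other end. On slide 3, which held 2 SP4 and all 3 SP8 arrays, 66 of 83 members were higher in SP4, with a median of 0.27 against -0.05. On the same slide the 2 DN3 arrays were higher than SP8 for 68 members.

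**Figure D4:**
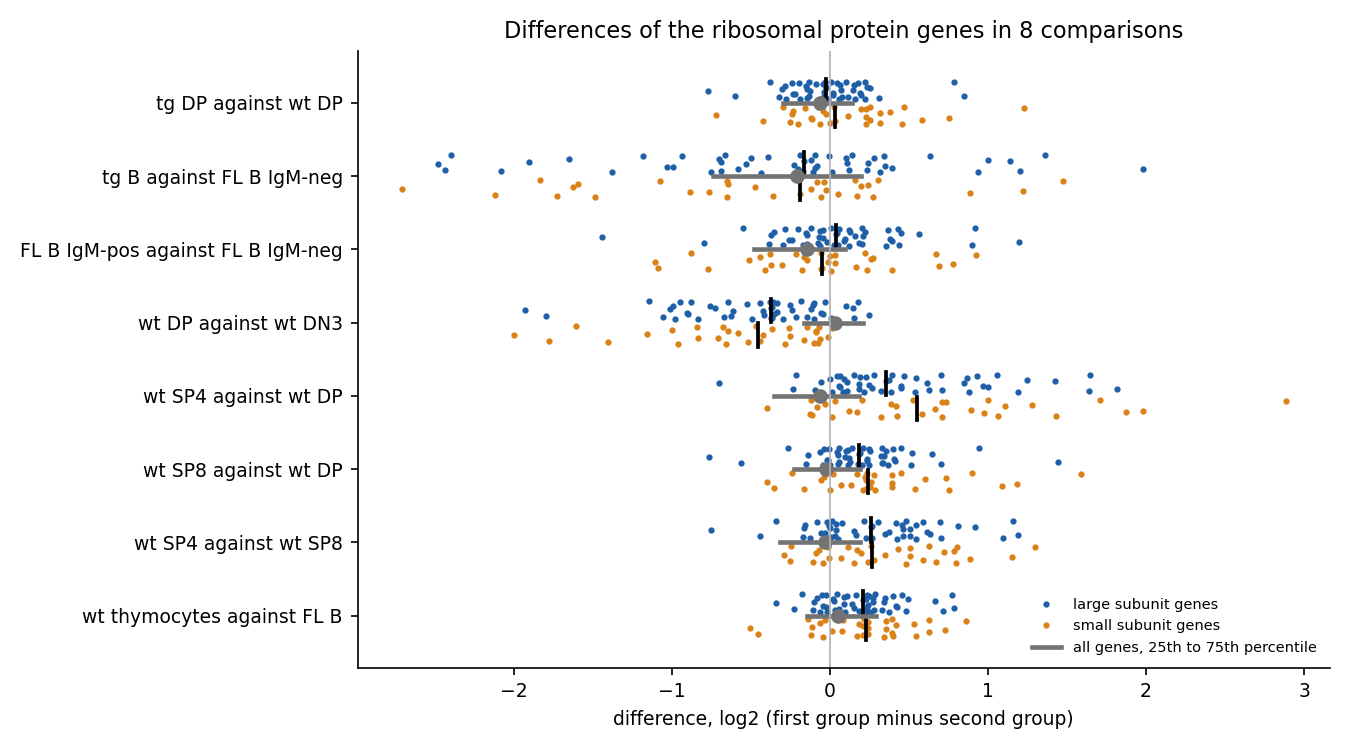
Differences of the 83 members in 8 comparisons (log2 scale), one dot per gene by subunit, with black bars at the subunit medians and grey marks at the median and quartiles of all genes. Most dots are below 0 for DP against DN3 and above 0 for SP4 against DP, and they lie on both sides of 0 for tg DP against wt DP.

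DP cells of the transgenic thymus without Foxn1 were set against wt DP cells. The loss of Foxn1 and the unnamed transgenes change together here and cannot be told apart. Of 83 members 40 were higher and 43 lower, with a median of -0.01 against -0.06 over all genes. None passed (0% of all genes; limma), and 3 had an unadjusted p under 0.05, all higher in tg, against 3.28% of all genes. Groups were apart for 5 members higher in tg (2.64% of all genes) and 1 lower (4.25%). Rps12, of the small subunit, was 1.38, 0.79 and 0.94 in wt DP and 2.27, 2.45, 2.33 and 2.00 in tg DP, higher by 1.23 ± 0.32 without overlap (adjusted p = 1). Rpl23 was higher in tg by 0.85 ± 0.40 and Rpl4 by 0.78 ± 0.35, while Rps2 (-0.42 ± 0.35), Rpl7a (-0.32 ± 0.18) and Rpl13 (-0.22 ± 0.20) were lower. Without the arrays that stand apart the large and small medians were 0.02 and 0.00.

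In IgM-negative B cells of the tg thymus, Rpl23 fell against fetal liver. Organ and genotype both differ in this comparison and cannot be told apart. Rpl23 was -1.78 and -1.61 on tg B arrays 22 and 23 and 0.51, -0.24 and 2.08 on fetal liver arrays 16, 17 and 18, a difference of -2.48 ± 0.47 (limma, adjusted p = 0.0490). The groups did not overlap. Rpl23 was the 1 member of 83 that passed, where 0.149% of all genes did. Under the alternatives its adjusted p ran from 0.0136 to 0.907 and its difference from -2.99 to -1.59, and most of them ended the call. Without array tg B 23 the difference was -2.57 (adjusted p = 0.280), without fetal liver array 16 it was -2.62 (0.133) and without array 18 -1.83 (0.147).

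The other members scattered in both directions. Of 83, 54 were lower and 29 higher, with a median of -0.17 against -0.20 over all genes. Scaling moved these medians: arrays scaled on their median gave 0.13 for the large and 0.10 for the small subunit, with all genes at 0.09. Unadjusted p under 0.05 was reached by 25 members, against 17.1% of all genes. Groups were apart for 20 members lower (23.9% of all genes) and 5 higher (9.05%).

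Rpl4, a large-subunit protein lining the peptide tunnel, was -2.25 and -2.52 in tg B and -1.59, -0.44 and -0.17 in fetal liver, lower by 1.65 ± 0.42 (adjusted p = 0.109). Rpl7a, of the large subunit, was 3.59 and 4.10 against 3.12, 2.99 and 2.62, higher by 0.94 ± 0.22 (adjusted p = 0.0955). Both had groups that did not overlap. Rpl7l1 was higher by 1.98 ± 0.61 and Rpl35a by 1.36 ± 0.46, resting mostly on array 23, where they were -0.51 and 3.77 against -2.77 and 1.48 on array 22.

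Array 23 weighed on several members. Rpl3 was 0.65 on tg B 22 and -3.70 on tg B 23, and Rps15a was 1.29 and -2.71. B cell markers were lower in tg B in 5 of 7 cases (median -0.75, mean level per array -1.81 and -1.16 in tg B and -0.82 to -0.21 in fetal liver), none passed, and their part in the result was not tested. Without tg B array 22, 28 members passed, among 5780 genes in all. Array 23 then stands alone for its group, and its spread is taken from the others, so this count has no replicate behind it. Without array 23 or the 3 arrays that stand apart, 0 members passed (array 22 then stands alone) and the large and small medians were -0.24 and -0.16, against -0.12 for all genes.

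The DP comparison (tg against wt thymus) and the B cell comparison (tg thymus against wild-type fetal liver) differ in their control organ, so the second does not isolate the tg genotype. For Rpl23 they gave 0.85 and -2.48, and the difference between these was -3.33 ± 0.62 (limma, adjusted p = 0.137). That of Rpl4 was -2.43 ± 0.54 and that of Rpl7a 1.26 ± 0.29. No member passed, 0.00595% of all genes did, and 19 members had an unadjusted p under 0.05, against 9.68% of all genes. Without the arrays that stand apart, Rpl23 differed by 0.75 in DP and by -2.57 in B cells, and Rpl7a by -0.34 and 0.68. With all arrays, 1 other Rpl23 probe gave -0.187 in DP and -0.655 in B cells, without a change of sign.

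IgM-positive and IgM-negative fetal liver B cells, which mark the step at which the B cell receptor reaches the surface, were compared next. Of 83 members 42 were higher and 41 lower in IgM-positive cells, with a median of 0.00 against -0.14 over all genes. None passed (0% of all genes; limma), and 7 had an unadjusted p under 0.05, against 7% of all genes. Rpl4 was -2.08, -2.48 and -1.98 in IgM-positive and -1.59, -0.44 and -0.17 in IgM-negative cells, lower by 1.44 ± 0.37 (adjusted p = 0.411) and without overlap. Rps14 (-1.11 ± 0.42) and Rps9 (-0.88 ± 0.34) were also lower. Rplp0 was -0.81, -0.57 and 0.59 against -1.27, -1.36 and -1.75, higher by 1.2 ± 0.37 (adjusted p = 0.543), and Rpl35 and Rps4x by 0.92 ± 0.43 and 0.67 ± 0.29. On slide 4 alone, 41 members were higher and 42 lower. Without the arrays that stand apart the large and small medians were 0.05 and -0.06, and Rplp0 was higher by 0.77.

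Over the wt thymocyte stages against fetal liver B cells, 63 of 83 members were higher in thymocytes, with a median of 0.22 against 0.05 for all genes. None passed, where 0.202% of all genes did (limma), and 14 members had an unadjusted p under 0.05, against 13.3% of all genes. Without the arrays that stand apart, Rpl23a passed (0.54, adjusted p = 0.04999), a member named after its value was seen. Thymocyte and B cell arrays overlapped for every member, and 0.137% of all genes were apart and higher in thymocytes. The strongest were Rpl21 (0.42 ± 0.12, adjusted p = 0.125), Rpl4 (0.78 ± 0.23, 0.138) and Rpl27a (0.72 ± 0.22, 0.147). Rps15 (-0.50 ± 0.30), Rps3 (-0.12 ± 0.08) and Rplp2 (-0.23 ± 0.16) stood at the other end, and Rps15 was at 0.19 with the slide in the fit.

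The close copies rest on 7 probes, and their values are a description. Their median was -0.09 for DP against DN3, with 4 of 7 lower, and -0.06 for SP4 against DP, with 2 of 7 higher, beside -0.42 and 0.45 over canonical members. Rpl22 was -0.90, -1.19 and -1.42 in DN3 and -1.52, -1.53 and -1.79 in DP, lower by 0.44 ± 0.40. Rpl22l1 was -2.41, -1.79 and -2.57 in DN3 and -2.18, -1.83 and -2.29 in DP. Rpl22 arrays were apart between these groups and Rpl22l1 arrays were not, and the Rpl22l1 difference was 0.16 ± 0.36. Rpl22 and Rpl22l1 were not tested against each other. A second Rpl22 probe, well above background on only 9 arrays, gave -2.14.

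Other copies gave values with wide errors, and their partners differed by varying amounts. For DP against DN3, Rpl10 differed by -0.36 ± 0.18 and its testis copy Rpl10l by 0.15 ± 0.51, Rpl39 by -0.37 ± 0.32 and Rpl39l by 0.25 ± 0.79, and Rpl7 by -1.01 ± 0.44 and Rpl7l1 by -0.41 ± 0.54. Rps27 differed by -0.84 ± 0.36, and by 1.0 ± 0.36 from DP to SP4, and Rps27l, a target of p53, by -0.08 ± 0.25 and -0.40 ± 0.25. Rpl3 differed by -0.25 ± 0.65 and Rpl3l, the striated muscle form, by -1.06 ± 1.03. Rpl3l was not well above background on either tg B array, so its level there is only a bound.

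Of the stalk proteins, which recruit translation factors, Rplp0 differed by -0.91 ± 0.37 for DP against DN3, Rplp1 by 0.01 ± 0.17 and Rplp2 by -0.06 ± 0.26. Rplp1 was 2.48, 2.32 and 2.29 in DN3 and 2.43, 2.31 and 2.37 in DP, overlapping throughout. Rpl5 and Rpl11, which bind Mdm2 when ribosome assembly fails, differed by -0.52 ± 0.50 and -0.73 ± 0.33, and in SP4 against DP by 0.23 and 0.06. The other Rpl11 probes gave 1.016 and 0.752 in SP4 against DP, so the value near 0 belongs to the brightest probe only. Rps19 and Rps14, genes of inherited and acquired anaemia, differed by -0.52 ± 0.50 and -0.71 ± 0.42 from DN3 to DP. Rps6, the target of the S6 kinases, differed by -0.42 ± 0.40 and then by 0.67 from DP to SP4. Its other probes disagreed in sign: 1 gave 0.445 and -1.21 for these steps, and another -0.942 and 1.213. For DP against DN3, Rpsa, known also as a laminin receptor, gave -0.29 ± 0.27, Rpl38, linked to selective translation in the embryo, -0.24 ± 0.36 and Rpl10a -0.34 ± 0.36. The X-linked Rps4x gave -0.67 ± 0.29, on a probe that the annotation places on chromosome 3.

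Probes that did not represent their gene bear on the same genes. Of 103 such probes, 84 were lower in DP than DN3 (median -0.43) and 83 were higher in SP4 than DP (median 0.62). The sign of the used probe matched that of the other probes in 48 of 57 genes for DP against DN3 and 43 of 57 for SP4 against DP. For Rpl23 a second probe, at chr11:97639350-97639409, gave -1.66 for DP against DN3 and -1.65 for tg B against fetal liver, and the third, at chr11:97638917-97638976, gave -0.06 and -0.66. For tg DP against wt DP these probes gave 0.615 and -0.187. A second Rpl12 probe gave -1.16 for DP against DN3 and 2.12 for SP4 against DP. Rps9 has 1 probe.

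Shared movement of the members was described within and between groups. The mean pairwise correlation of residuals within groups was 0.024 over the members and 0.022 over all genes, a description across 24 arrays that share amplification. Over all arrays with the groups left in, it was 0.142 over the members, 0.168 over canonical members and 0.027 over all genes.

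The transcript start is where a terminal oligopyrimidine tract would lie. RefSeq promoters on build GRCm38.p6 matched 62 members, with 74 starts. A run of 6 or more C or T over the start was found in 19 of the 74 (25.7%) and in 7.25% of 32851 promoters. The motif CGGAAG, on either strand in the 250 bases before the start, was found in 35 (47.3%) against 13.6%, AAGATGGC in 4.05% against 1.56%, and TATAAA in 5.41% against 12.4%. The 100 bases before the start are shown for 3 members with a run over the start and for Rpl23, which has none. Rpl12 and Rplp0 have neither a run over the start nor the motif in these 100 bases. Runs were scored only at the annotated start, where 43.2% of the members' starts had a C or T. A missing run there does not show that the transcript lacks a tract. Capitals mark the part of the C or T run before the start, or the motif.

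Rps9, chr7:3703941-3704040, plus strand: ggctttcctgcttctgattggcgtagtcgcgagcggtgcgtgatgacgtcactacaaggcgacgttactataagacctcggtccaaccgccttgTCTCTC
Rpl14, chr9:120571417-120571516, plus strand: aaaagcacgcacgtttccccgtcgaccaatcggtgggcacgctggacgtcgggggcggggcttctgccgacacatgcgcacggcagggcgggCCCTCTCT
Rps15a, chr7:118116148-118116247, minus strand: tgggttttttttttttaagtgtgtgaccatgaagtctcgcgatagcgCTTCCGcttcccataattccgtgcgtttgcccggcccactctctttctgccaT
Rpl23, chr11:97782440-97782539, minus strand: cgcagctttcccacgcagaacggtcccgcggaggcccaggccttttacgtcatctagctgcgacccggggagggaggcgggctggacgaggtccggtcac

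The Rps9 and Rpl14 starts sit in runs of 9 and 14 pyrimidines. Rps15a holds the motif on the opposite strand and a run of 9 that begins 1 base before the start. These letters say nothing of factor binding.

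Genes that make and control ribosomes were counted from lists of known factors. As background to the counts, 14935 of 33596 genes in all were lower in DP than DN3, and 14324 of 33594 were higher in SP4 than DP. Of 47 measured assembly and nucleolar factors of 48 listed, 31 were lower in DP than DN3 (median -0.16) and 21 were higher in SP4 than DP (median -0.04). Nop56, a core protein of small nucleolar particles, was the 1 gene of this list that passed in any of the 8 comparisons, and fell by 1.71 ± 0.33 in tg B against fetal liver (limma, adjusted p = 0.0494), where 0.149% of all genes passed. The calls of that comparison over all genes dropped from 50 to 14 under median scaling, 8 under quantile scaling and 0 with only the groups compared, and Nop56 was not followed under these. Of 12 measured RNA polymerase I genes, 5 were lower in DP than DN3 and 8 higher in SP4 than DP. Of 15 mTOR and oligopyrimidine-control genes, 11 were lower in DP and 6 higher in SP4, and of 8 genes of the p53 response, 5 and 7. None of these 3 lists had a member that passed in any of the 8 comparisons, and for DP against DN3 0, 1 and 1 of their members had an unadjusted p under 0.05. Of 4 ribosomal proteins outside the name rule, such as Fau, 3 were lower in DP than DN3 and 3 higher in SP4 than DP.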

How the data were processed

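Per the labels' protocols, sorted cells were lysed, polyadenylated RNA was captured, copied and amplified by PCR (SuperAmp) and labelled with Cy3. The deposited spot files hold intensities from Feature Extraction 10.7.3.1 (processed signal, background-subtracted, per the file headers), and the authors' deposited series matrix holds log2 values with a median of 7.93 on every array, made by a program that no label or header used here names. Control spots (3671 of 62976) and 248 non-uniform values were left out, and no spot was saturated. From each log2 processed signal the 75th percentile of its array was subtracted. The brightest probe stood for a gene, and genes well above background on every array of a group were kept (33597). Group means of all 24 arrays were fitted with limma 3.58.1 in R 4.3.3 without covariates, with Benjamini-Hochberg adjustment over all genes. Steps were tested on simulated data. Members named were those called, the 3 strongest each way per comparison, the 5 with the smallest F test p, the steadiest and most variable 5, those below background and a fixed set of 24 known genes. A few members chosen this way are not reported here. Members and lists were chosen with earlier results of these data known. The strict filter kept genes well above background on all 24 arrays. Alternatives covered scaling, background, filters, probes, slide, weights and left-out arrays. The number of arrays limits the precision.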

Additional observations from a re-analysis of the deposited data

Results flagged for a closer look

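Rpl23 had a difference of 0.85 between tg and wt DP thymocytes and of -2.48 between tg thymic and fetal liver IgM-negative B cells. In the second comparison organ and genotype differ together and cannot be told apart. The difference between both comparisons was -3.33 (limma, adjusted p = 0.137), so it did not pass over all genes. Rpl7a gave -0.32 and 0.94 in the same comparisons, a difference of 1.26 (adjusted p = 0.275). Both genes were picked from the members by the following pattern, so the pattern is no separate evidence. For each gene, all tg DP arrays lay to one side of all wt DP arrays. The tg B arrays all lay to the opposite side of all fetal liver IgM-negative arrays. How many of all genes show this pattern was not counted. Another Rpl23 probe gave 0.615 and -1.646 in the same comparisons. The third Rpl23 probe gave -0.187 and -0.655, so the change of sign was not seen on every probe of the gene.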

How the results depend on the processing

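No paired analysis was possible because the groups share no replicate numbers. Over the alternatives run, 6 to 11 of 83 members were higher in DP than DN3 and 65 to 73 were higher in SP4 than DP. For tg B against fetal liver, the 1 member called became 0 under median scaling, quantile scaling, normexp, the authors' matrix, the mean of all probes, no filter, the strict filter, a fixed slide block, array weights, only the groups compared, averaged title numbers, removed probe GC medians (chosen after seeing the data) and without the 3 arrays that stand apart. Its large-subunit median was 0.13 (median scaling), -0.31 (quantile; authors' matrix) and 0.08 (GC), and its small-subunit median 0.10, -0.32 and 0.04, with -0.37 for the mean of all probes. For IgM-positive against IgM-negative cells the large median was 0.18 (median scaling) and 0.15 (GC) and the small median 0.09 (median scaling). For SP4 against DP, 1 member passed under median scaling, normexp, the strict filter and GC, and 2 under array weights and without the 3 arrays, and the large median was 0.53 with the mean of all probes. The fixed slide block gave 0.02 and 0.07 for SP8 against DP and 0.45 for the small subunit of SP4 against SP8. For thymocytes against B cells, 1 member passed without the 3 arrays. For any difference over the groups, 0 members passed under median scaling, quantile scaling, normexp, the authors' matrix, either slide block, averaged title numbers and without the 3 arrays, 3 under the strict filter (52 of 27221 genes) and 9 under array weights (708 of 33597 genes), against 63 genes in the main setting. With the mean of all probes the member that passed was Rpl12 in place of Rpl23, and with GC it was Rps9. The cause of these changes was not tested. Weak signal limits tg B 23, where the fewest probes were above background.

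Leaving out each array in turn gave 0 to 25 members with any difference and 0 to 28 for tg B. Without tg B 22, 25 members differed among 2973 genes, with array 23 alone in its group and its spread taken from the other groups. The count was 2 without tg DP 4 or IgM-pos 19, 3 without IgM-pos 20, and 0 without any wt DP, DN3 or SP8 array, tg DP 6A or 6B, SP4 10 or 12, IgM-pos 21 or tg B 23. The large and small medians ranged from -0.24 to -0.05 and -0.32 to -0.09 (tg B), -0.05 to 0.02 and 0.00 to 0.13 (tg DP), -0.02 to 0.11 and -0.12 to -0.04 (IgM), -0.45 to -0.28 and -0.54 to -0.36 (DP against DN3), 0.30 to 0.40 and 0.37 to 0.63 (SP4 against DP), 0.12 to 0.20 and 0.18 to 0.30 (SP8 against DP), 0.16 to 0.30 and 0.24 to 0.43 (SP4 against SP8), and 0.13 to 0.23 and 0.17 to 0.26 (thymocytes against B cells). Reversed members reported here were Rpl24, Rpl6, Rpl13a, Rpl21, Rpl22l1 and Rps15, under averaged probes, the fixed slide block or both (Rpl24 -0.24 and -0.20, Rpl6 -0.20 and -0.06, Rpl13a 0.35, Rpl21 -0.17, Rpl22l1 -0.14, Rps15 0.19). Leaving out 1 array moved Rpl22l1 from -0.003 to 0.39 and Rpl13a from -0.69 to 0.09.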
